A study of Mus musculus with 2 samples.

Results

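The comparison set 3 pools of early red cell progenitors against 3 pools of late ones, each made by summing the cells that carry 1 name in the deposited cell table. The early side held FACS BFU-E (233 cells), PE-low (208) and CS BFUE (122), and the late side held FACS CFU-E (167), PE-high (294) and CS CFUE (195). Together these were 1219 of the 3357 cells of the series, 563 early and 656 late, and the 2138 cells named unknown were left out. The pools were paired by isolation into a FACS, a PE and a CS pair, and all 6223 genes with at least 20 UMIs per 1000000 UMIs (CPM) in any pool were compared. A UMI is a random tag that marks 1 captured transcript molecule.

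All cells came from fetal livers of the mouse strain C57BL/6, taken at embryonic day 14.5, were described as CD71/CD24low, and were sequenced with a 10x kit that reads the 3' end of transcripts. The FACS and PE pools were tagged with antibody-linked oligos and run as 1 hashed library, and the CS pools came from a second library stained for CD117 and CD71. FACS sorts cells 1 by 1 on fluorescent antibodies, and a magnet method is named beside it. The meaning of PE and CS, and the way cells received the CS names, are, in the sources used here, not given. Growth for 10 days with dexamethasone at 100 uM or with methanol is described too, without saying if the sequenced cells had been through it. No label says how many embryos a pool came from. The p-values below therefore measure the spread between 3 pairs of pools, 2 of which share a library, and not between animals. Each pair is called an isolation below, although for CS, which is a separate library, no isolation method is given.

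The oligos that tag the pools of the hashed library are shown because the names of those pools match them. The antibody oligos of the CITE-seq library are shown beside them, and whether the CS names rest on them is not given. Each has 15 bases, and the 4 hashtags differ from each other at 10 to 13 positions. They are written 5′ to 3′ as the labels give them, and no letter is marked.
FACS BFU-E: AACCTTTGCCACTGC
FACS CFU-E: GTCCGACTAATAGCT
PE-low: CAGGTTGTTGTCATT
PE-high: TATTTCCACCCGGTC
CD117: TGCATGTCATCGGTG
CD71: ACCGACCAGTAGACA

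The BFU-E, named for the bursts of red colonies it forms in culture, still divides many times, responds to stem cell factor through Kit and is sustained by glucocorticoids. Its progeny, the CFU-E, forms small single colonies, depends on erythropoietin, raises the transferrin receptor for iron uptake, and starts the enzymes of heme synthesis and the proteins of the red cell membrane. The fetal liver is the main site of red cell formation at midgestation, and it also holds multipotent, granulocyte and monocyte progenitors, megakaryocytes, hepatocytes and endothelium.

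The pools held between 2968491 UMIs (CS BFUE) and 11003022 UMIs (PE-high), with a median per cell of 23449 in CS BFUE and 31594 to 38663.5 in the others, and no cell barcode occurred in both libraries. Markers of other blood lineages stood apart by side. The summed level of 10 granulocyte progenitor markers was 1339, 724 and 633 CPM in FACS BFU-E, PE-low and CS BFUE and 6.74, 249 and 13.8 in FACS CFU-E, PE-high and CS CFUE. For 12 monocyte markers these levels were 228, 355 and 142 CPM on the early side and 3.53, 74.2 and 7.11 on the late side. Cells with at least 10 UMIs per 10000 from both lists together, called marker-rich cells, made up 30% (95% exact binomial interval 24.2% to 36.4%), 22.6% (17.1% to 28.9%) and 23.8% (16.5% to 32.3%) of the cells of FACS BFU-E, PE-low and CS BFUE. In the late pools they were 0 of 167 cells of FACS CFU-E (95% exact upper limit 2.18%), 19 of 294 of PE-high and 1 of 195 of CS CFUE. Intervals and limits cover counting error only. Of the granulocyte markers, Ltf and Camp were at 0 in all pools. Cells with at least 20 globin UMIs per 10000 were found mostly in PE-high, 58 cells against 0 to 12 in the other pools. The 9 hepatocyte markers summed to 179 CPM in CS CFUE and to between 2.89 and 44.1 in the other pools. Counts of consistent genes, of limma calls and of the main gene lists are therefore also given without the marker-rich cells. In a pool sum, fewer cells with a transcript and less of it per cell cannot be told apart.

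Between the early and the late pools, 936 genes differed by at least 1.5-fold the same way in every isolation. With limma on log2(CPM + 2), the pair as block and a Benjamini-Hochberg adjusted p under 0.05, 1584 genes (25.5% of 6223) were higher in the early pools and 1611 (25.9%) in the late pools, 51.3% in all. These shares are the background for every count of list members with all cells below. The lists were chosen with earlier results of these data known, so their counts describe and test nothing. With median-of-ratios scaling in place of the total UMIs the split was 1261 early and 2154 late. Without the block that pairs the pools, the count fell to 1270 genes, 768 early and 502 late, all of them among the 3195. Of the calls, 1504 of 3195 lay under 1.5-fold in every pair. A ratio of at least 1.5 the same way in all 3 pairs was met by 588 genes higher in early pools (9.45%) and 348 higher in late pools (5.59%), 15% in all. Of these consistent genes, 581 early and 347 late also passed the limma test. The levels of the sides did not overlap, all 3 pools of a side being above all 3 of the other, for 1266 genes higher early (20.3%) and 1027 higher late (16.5%).

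Among the consistent genes, 363 of the 588 early ones reached 20 CPM in no late pool and 142 of the 348 late ones reached it in no early pool, so their direction follows in part from the limit. With a mean over the pools of at least 20 CPM in its place, 338 and 275 consistent genes remained. Just inside the limit, 259 genes had a highest level of 20 to 22 CPM, 42 of them consistent, and just outside it 296 genes had 18 to 20 CPM. Without the marker-rich cells 435 genes were consistent early, 398 of them among the 588, and 292 consistent late, 282 of them among the 348. The limma test then called 2859 genes, 1436 early and 1423 late, 2614 of them among the 3195.

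Genes past 1.5-fold in 2 isolations were compared with the third. Since the sources used here do not say how CS names were given, the CS pair cannot be taken as independent of transcript levels. Of 641 genes past 1.5-fold early in both the FACS and the PE pair, 588 (91.7%) were past 1.5-fold early in the CS pair, where 13.3% of all genes were, and 638 had the same direction. Of 368 genes late in FACS and PE, 348 (94.6%) were late in CS, against 10.8% of all genes, and all 368 had the same direction. The PE pair was met least often. Of 704 genes early in FACS and CS, 588 (83.5%) passed in PE, against 11% of all genes, and of 471 late in FACS and CS, 348 (73.9%) did, against 6.49%. In the FACS pair the shares were 99% of 594 early and 95.9% of 363 late genes, against 14.2% and 9.18% of all genes. Across the 2972 genes that reach 50 CPM in 1 or both pools of every pair, the log2 ratios of the pairs correlated with Pearson r of 0.926 (FACS and PE), 0.962 (FACS and CS) and 0.925 (PE and CS). These are across genes, which are not independent, and the FACS and PE pools share a library.

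**Figure D1:**
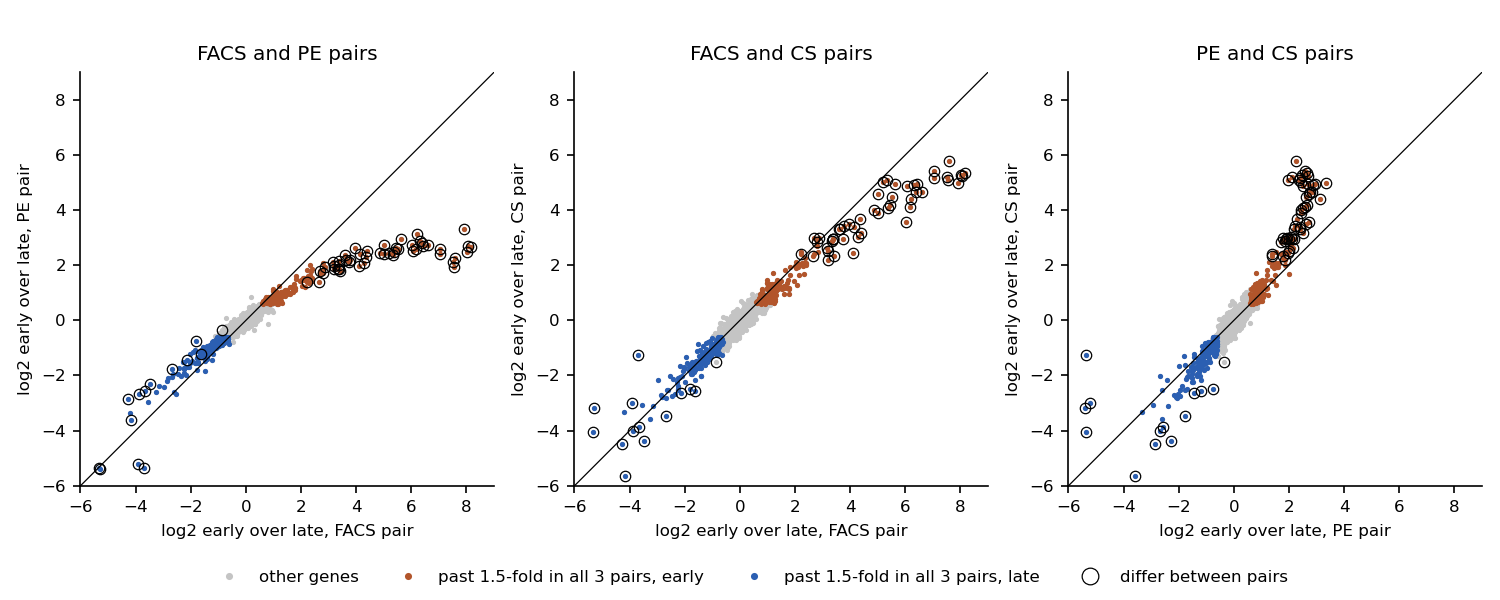
Log2 ratio of early over late CPM in 1 pair against another, for the 2972 genes that reach 50 CPM in each pair; each point is a gene, orange and blue are genes past 1.5-fold in all 3 pairs, circles mark the 63 genes that differ between pairs, and the line marks equal ratios. Early genes with large ratios bend away from the line where the PE pair is plotted, the PE ratio of an early gene being at most 3.32 (Vim) on the log2 scale.

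The 15 widest early differences fell in genes of several kinds, with Vim first and granule, early erythroid, cytoskeleton and stem cell genes among the rest. Vim encodes the intermediate filament vimentin. It was at 465, 452 and 348 CPM in FACS BFU-E, PE-low and CS BFUE and at 1.93, 45.2 and 10.9 CPM in FACS CFU-E, PE-high and CS CFUE. All early pools stood far above all late ones, and PE-high held the most of the late side. The early level was 241-fold higher in the FACS pair, 10-fold in PE and 31.8-fold in CS, and the limma difference was 4.97 ± 0.52 (SE) on the log2(CPM + 2) scale, adjusted p = 0.000131. FACS CFU-E, with no marker-rich cell and a median of 38377 UMIs per cell, serves as the background for shares of cells with a UMI of such genes. A UMI of Vim was seen in 95.7%, 89.4% and 91% of the cells of the early pools and in 7.19%, 21.4% and 12.3% of the late ones. With each cell thinned to 6800 UMIs, for which no cell had to be left out, these shares were 81.5%, 73.6% and 74.6% against 1.8%, 10.5% and 4.1%. Without the marker-rich cells Vim kept 429, 422 and 354 CPM on the early side.

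For the cytoskeleton genes Tmsb4x and Coro1a PE-high was again the highest late pool. Tmsb4x, an actin-sequestering thymosin and among the most abundant transcripts, was at 1303, 1692 and 948 CPM early and 74.6, 318 and 89.9 CPM late. Without marker-rich cells its early levels were 484, 502 and 553 CPM, below the levels with all cells in each early pool. Coro1a, an actin regulator of blood cells, had 249, 250 and 207 CPM early against 3.69, 44.2 and 7.11 CPM late. Of 19 tested genes of cytoskeleton and adhesion 15 were higher early and 2 higher late, with a median log2 difference of 1.01 against -0.008 over all genes tested. The late ones were Icam4, a red cell adhesion molecule, and the integrin chain Itgb1, which was under 1.5-fold in at least 1 pair.

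Genes of stem and multipotent progenitors were nearly all early. Of 11 tested, 9 passed the limma test early and 1 late, with a median log2 difference of 2.58. Cd34 and Angpt1 reached 20 CPM in no late pool, so their direction follows in part from the limit. Cd34, a surface sialomucin of progenitors, was at 92.2, 88.2 and 105 CPM early and at 0.321, 13.9 and 2.6 CPM late. The sides did not overlap, and the ratio fell from 8.17 (log2) in FACS to 5.34 in CS and 2.67 in PE. Angpt1, a ligand of the Tie receptor, was at 26.3, 11.4 and 37.1 CPM early and between 0.161 and 2 CPM late, and its adjusted p rose to 0.0967 without the CS pair. Hoxa9 and Hlf, factors of the stem cell state, were chosen after their values were seen, since both were highest in CS BFUE. Hoxa9 had 6.78, 8.47 and 27.6 CPM early and 0, 0.636 and 0.41 CPM late (adjusted p = 0.0222). Hlf had 7.19, 2.68 and 34 CPM early and 0.161, 1.64 and 0.683 CPM late (adjusted p = 0.0816), so it was past 1.5-fold in all pairs without passing the test. The exception was Mllt3, a chromatin factor of stem cells, which was higher late, at 122, 112 and 89.9 CPM against 31.9, 40.7 and 35.7 CPM. Mllt3 was also named after its values were seen.

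Much of the Cd34 signal lay in marker-rich cells. Without them its early levels were 4.85, 12.4 and 50.8 CPM, and CS BFUE then held the most. Ramp1, an accessory subunit of the calcitonin-type receptors, stayed high without them, at 88.9, 79.2 and 115 CPM against 169, 138 and 159 CPM with all cells. Klk8, a secreted serine protease, likewise kept 65.2, 61.2 and 62.5 CPM of 107, 86.8 and 88.3 CPM. In the late pools Ramp1 and Klk8 were at 0.642 to 4.24 CPM, apart from PE-high, which had 21.3 and 14.4 CPM.

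**Figure D2:**
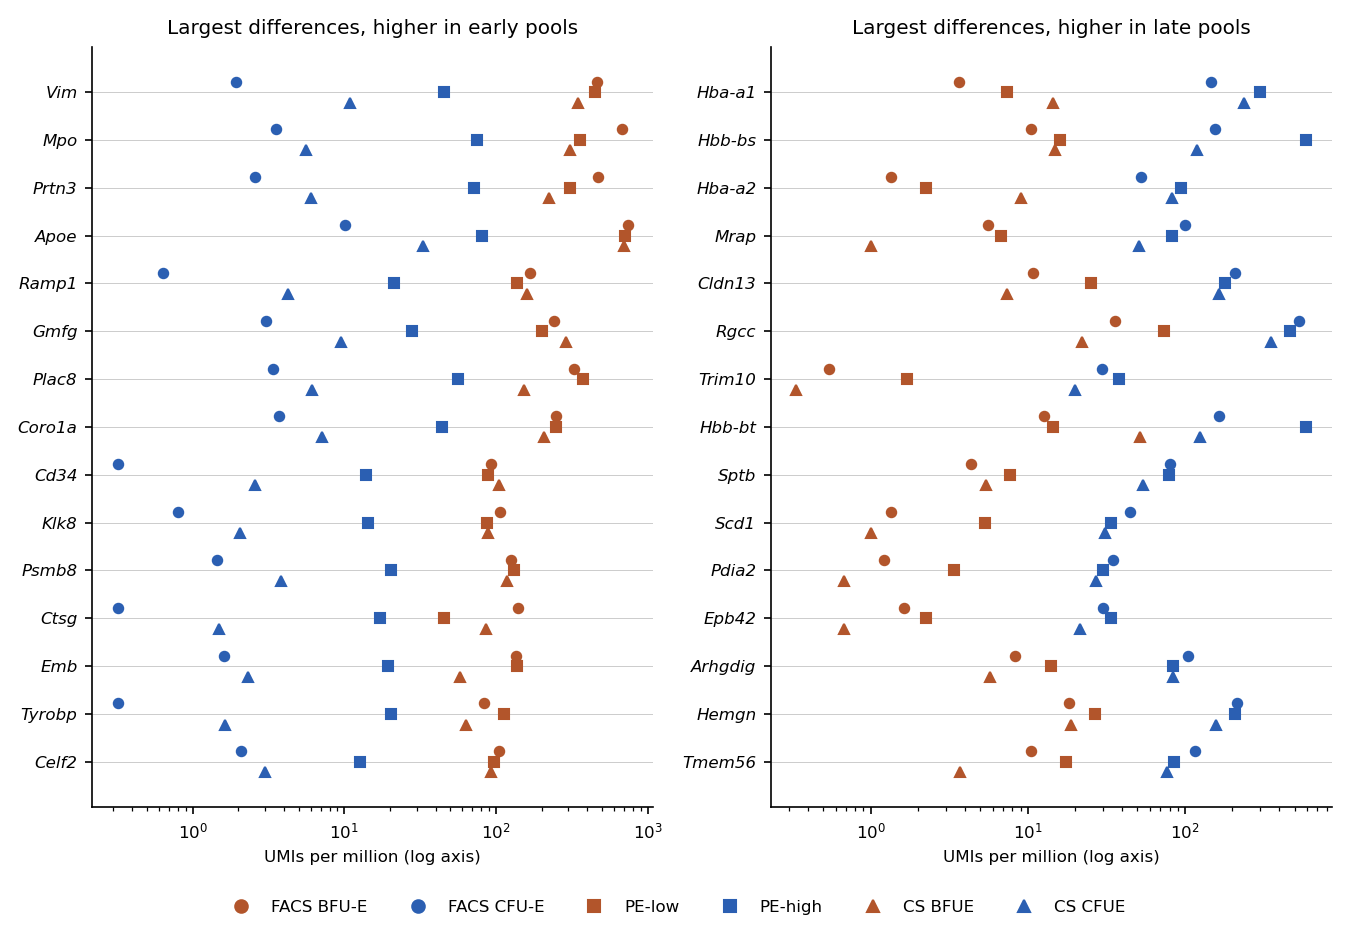
Level in CPM, on a log axis, of the 15 genes with the largest early and the 15 with the largest late difference (rows) in each of the 6 pools; orange is early, blue is late, circles are the FACS pair, squares PE and triangles CS. In the left panel the blue square of PE-high is the nearest to the early pools in all 15 rows, and in the right panel PE-high is the highest pool for the 4 globin genes.

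Early erythroid progenitor genes were mostly early as well, 10 of 13 against 2 late, with a median log2 difference of 1.93. Apoe, a lipid carrier protein, was at 739, 706 and 694 CPM early and at 10.1, 80.8 and 33.1 CPM late, and without marker-rich cells its early levels were 855, 872 and 802 CPM. Gata2, the GATA factor of stem and early progenitor cells, had 45.4, 33.3 and 29.3 CPM early and 0.642, 5 and 1.78 CPM late. Muc13, a membrane mucin, had 50.7, 37.3 and 24.9 CPM early and 0.481, 2.36 and 0.547 CPM late. Both were as high in the early pools without the marker-rich cells, Gata2 at 49, 39.3 and 31.7 CPM and Muc13 at 62.8, 46.1 and 31.7 CPM. Myb, a factor that keeps progenitors dividing, had 371, 346 and 365 CPM early and 108, 152 and 163 CPM late, and Car1, a carbonic anhydrase, 131, 139 and 92 CPM early and 26.3, 34.5 and 28.6 CPM late. These last genes were named after their values were seen. The members that were higher late, Ikzf1 and Gfi1b, are factors of lymphoid and of erythroid cells, and Ikzf1 lost its call without the block (adjusted p = 0.122).

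Plac8 and Emb, surface-linked genes that belong to the same list, behaved differently when cells were left out. Plac8 went from 325, 376 and 154 CPM in the early pools to 21.6, 38.8 and 37.4 CPM without marker-rich cells. Emb, an immunoglobulin-family adhesion protein, went from 135, 137 and 57.9 CPM to 1.3, 17.8 and 16.9 CPM. Its log2 ratio in the FACS pair fell from 6.40 to -0.30 (1.3 against 1.6 CPM), while Emb stayed higher early in PE (2.96) and CS (3.36). Without cells rich in any marker list or in globin the FACS ratio was 0.41 (1.33 against 1 CPM). Its sign is therefore not settled at these low levels.

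Transcription factors of myeloid and stem cells were higher early for 10 of 13 tested genes and late for Ikzf1. Spi1 encodes PU.1, the factor that directs myeloid fate. It was at 91.7, 92.5 and 47.8 CPM early and 3.21, 17.2 and 3.14 CPM late, and at 13, 16.3 and 17.8 CPM early without the marker-rich cells. Irf8, a monocyte factor named after its values were seen, had 65.2, 69 and 7.75 CPM early and 0.802, 11.7 and 1.78 CPM late. CS BFUE was thus well below the other early pools, and without marker-rich cells Irf8 was at 2.61 CPM or less in every pool. Mef2c and Fli1 were less dependent on those cells: Mef2c kept 80, 86.4 and 123 of 120, 130 and 156 CPM, and Fli1 24, 19 and 22.6 of 32.1, 27.2 and 33.4 CPM.

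Granule protein genes were higher on the early side, and at lower levels this held for Mpo and Prtn3 in the cells that were not marker-rich. Mpo, the myeloperoxidase of neutrophil granules, had 680, 357 and 310 CPM early and 3.53, 74.8 and 5.6 CPM late. A UMI of Mpo was seen in 44.2%, 37% and 37.7% of early cells and in 10.8%, 21.1% and 4.1% of late cells, and in 33.5%, 23.1% and 33.6% against 1.8%, 11.2% and 1.03% of cells thinned to 6800 UMIs. Ctsg and Prtn3, serine proteases of the same granules, followed Mpo, with 139, 45.6 and 86.2 CPM of Ctsg early and 0.321, 17.1 and 1.5 CPM late. Since Mpo, Ctsg, Prtn3 and Tyrobp belong to the lists that define the marker-rich cells, their drop without those cells follows from the choice. Without them Mpo still had 20.1, 16.9 and 36.9 CPM early and 3.53, 4.56 and 3.71 CPM late. Prtn3 then had 24.4, 20.8 and 44.3 CPM early and 2.57, 3.32 and 2.61 CPM late. Both kept their early call. One cell of PE-high held 50.5% of that pool's Ctsg UMIs and one held 91.9% of its Elane UMIs. Of the tested genes from the marker lists of other lineages, none passed the limma test late. Higher early were granulocyte 3 of 6, monocyte 3 of 5, megakaryocyte 3 of 3, lymphoid 2 of 2, and mast cell and endothelium 1 of 1 each. Egfl7, the endothelium gene, had a UMI in 97.9%, 97.1% and 93.4% of early cells and 97%, 96.9% and 94.9% of late cells. The 9 megakaryocyte markers summed to 210, 203 and 141 CPM early and 108, 126 and 88.6 CPM late. At least 10 of their UMIs per 10000 were held by 4, 4 and 0 early cells and by 0 late cells. Whether these calls reflect endothelial cells or megakaryocytes was not tested. The 2 hepatocyte markers tested, Alb and Afp, passed in neither direction, with a median log2 difference of -0.62. Alb had 9.43 CPM in CS BFUE against 51.9 in CS CFUE, and Afp 13.8 against 57.9. How far the marker-rich cells set the early differences was not tested beyond the counts without them.

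**Figure D3:**
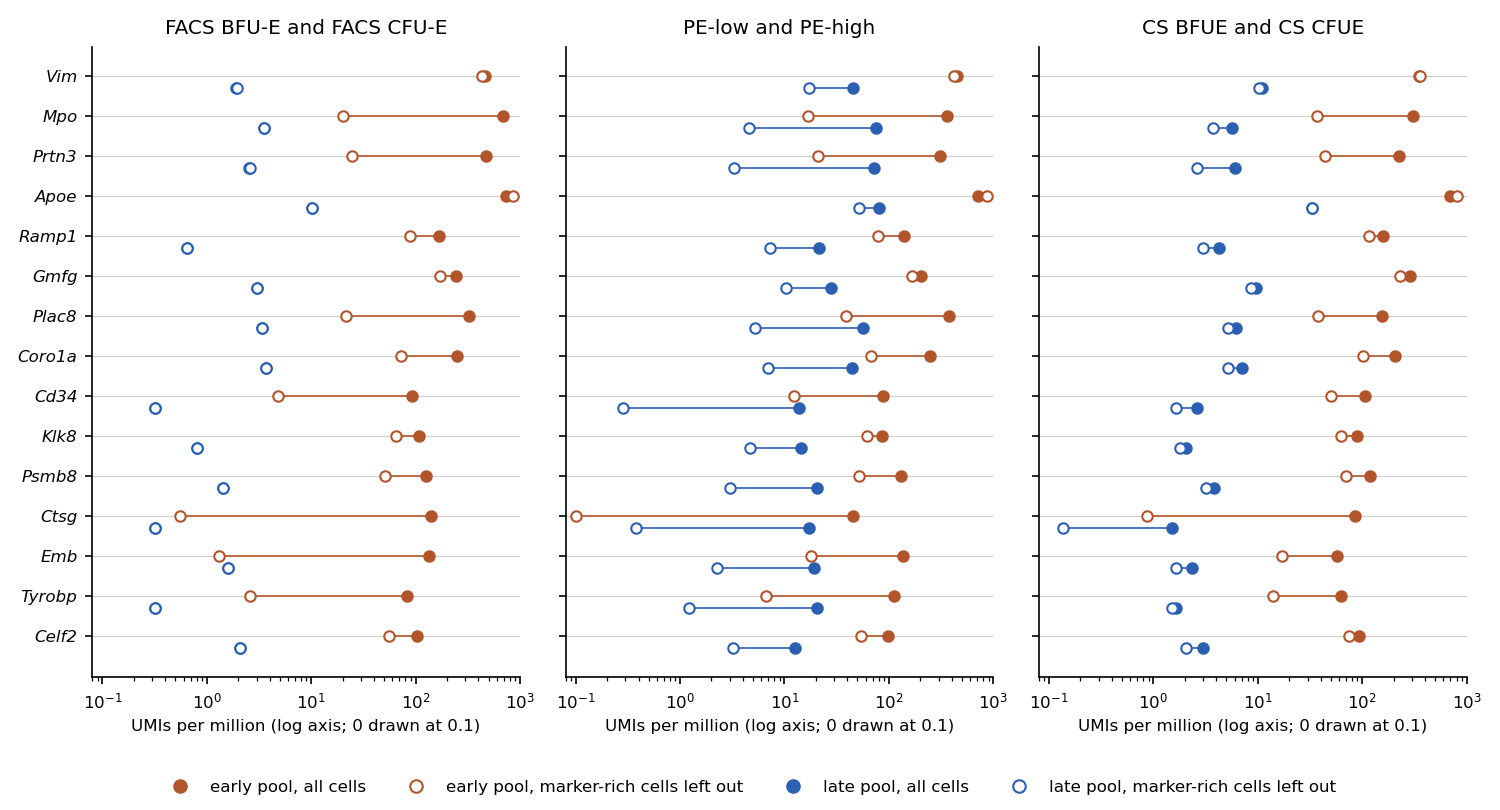
Level in CPM, on a log axis, of the 15 genes with the largest early difference, with all cells (filled) and without the marker-rich cells (open), in the early (orange) and late (blue) pool of each pair; a level of 0 is drawn at 0.1. Vim and Apoe hardly move in the early pools, Cd34, Plac8, Emb and Tyrobp drop, and the PE-high points move left for all 15 genes.

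Antigen presentation and interferon genes were early in 12 of 15 cases. Psmb8, a subunit of the immunoproteasome, was at 125, 131 and 118 CPM early and 1.44, 20.4 and 3.83 CPM late. B2m, the light chain of class I molecules, had 162, 154 and 155 CPM early and 76.1, 88 and 65.6 CPM late, a smaller step of 1.02 ± 0.08 on the log2 scale. Ifi30, a lysosomal reductase named after its values were seen, was the single late member, at 49.9, 87.1 and 25.9 CPM early and 176, 147 and 146 CPM late.

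H2afy and Nme2 were other abundant early genes beside Tmsb4x. H2afy, which encodes the histone variant macroH2A, was at 954, 859 and 891 CPM early and 91.8, 233 and 116 CPM late. Nme2, a nucleoside diphosphate kinase linked to MYC, had 1548, 1454 and 1351 CPM early and 630, 739 and 651 CPM late. The sides of both did not overlap. The genes of the fetal growth programme were early in 6 of 8 cases and late in none. Hmga2, an architectural chromatin protein, had 154, 136 and 141 CPM early and 5.3, 24.8 and 8.88 CPM late. Lin28b, the regulator of let-7, had 44.1, 42.1 and 30 CPM early and 44.8, 43.9 and 28.7 CPM late (adjusted p = 0.942).

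On the late side all 4 tested globin genes were among the 15 widest differences, with Hba-a1 first. Hba-a1, an alpha chain gene, was at 3.66, 7.34 and 14.5 CPM early and at 148, 303 and 238 CPM late. All late pools were above all early ones. The late level was 40.3-fold higher in the FACS pair, 41.3-fold in PE and 16.4-fold in CS, and the limma difference was -4.54 ± 0.19 (adjusted p = 4.54e-06). The sequences of Hba-a1 and Hba-a2 hardly differ, so the division of UMIs between them is uncertain. A UMI of Hba-a1 was seen in 86.8%, 68% and 91.8% of late cells and in 9.87%, 13.9% and 27% of early cells, and the share that free globin RNA gives was not measured. Hbb-bs and Hbb-bt, the adult beta chain genes, are also close copies. Hbb-bt was at 12.8, 14.5 and 51.9 CPM early and 166, 596 and 125 CPM late. PE-high held the most and CS BFUE stood above the other early pools. Hbb-bs had 10.4, 16 and 14.8 CPM early and 156, 593 and 119 CPM late. The other 3 of the 7 globin genes in the table lay below the limit. Without marker-rich or globin-rich cells all 4 remained late, with a median log2 difference of -2.67 against -3.84.

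Genes of heme biosynthesis were higher late in 12 of 13 cases, with a median log2 difference of -1.50. Uros, which closes the porphyrin ring, was at 11.1, 14.8 and 7.75 CPM early and at 59.5, 54.9 and 46.9 CPM late. Fech, which inserts the iron, had 47.3, 52.5 and 40.4 CPM early and 171, 155 and 132 CPM late. The late pools of both genes lay close together. Alas1, the housekeeping form of the first enzyme, went the other way, at 27.7, 20 and 23.2 CPM early and 7.38, 12.6 and 12.6 CPM late. Without marker-rich cells Alas1 was at 16.6, 13.6 and 14.3 CPM early and no longer reached the limit in any pool.

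Iron handling was split, with 8 of 13 genes late and 2 early, not counting Tfrc. Fth1, the ferritin heavy chain, was at 2302, 2569 and 1849 CPM early and 5500, 5224 and 4570 CPM late. Slc25a37, mitoferrin of the inner mitochondrial membrane, had 26, 26 and 20.6 CPM early and 73, 92 and 50.8 CPM late. The early members were Ncoa4, the receptor for ferritin breakdown, and Slc25a28, the second mitoferrin, and both lay under 1.5-fold in at least 1 pair and lost their calls without the block (adjusted p = 0.234 and 0.174). Tfrc, Cd24a and Kit encode the antigens named in the labels and are given as a check of the pools, with no test, and are left out of the counts of iron and cytokine genes. Tfrc was at 82, 107 and 58.6 CPM early and 326, 303 and 276 CPM late. Cd24a was at 47.3, 70.7 and 65 CPM early and 374, 378 and 294 CPM late, and Kit went the other way, with 97.1, 77.8 and 119 CPM early and 42.5, 46.3 and 70.8 CPM late. All 3 separated the sides, so the transcripts of CD71 and CD24 were high in the late pools although the labels give CD71/CD24low for all cells.

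Of 15 genes of the red cell membrane skeleton 14 were higher late. Sptb, the erythroid beta spectrin, had 4.34, 7.76 and 5.39 CPM early and 80.7, 78.8 and 54.5 CPM late. Epb42, the protein that links the anion exchanger to the skeleton, had 1.63, 2.26 and 0.674 CPM early and 30, 33.9 and 21.5 CPM late. Rhag, the Rh-associated channel, had 22.2, 31.1 and 23.2 CPM early and 161, 141 and 154 CPM late. Slc4a1, the anion exchanger itself and the member without a call, was late past 1.5-fold in all pairs but unevenly, at 0, 0.282 and 0.337 CPM early and 4.33, 31.1 and 5.88 CPM late (adjusted p = 0.0612). It is also one of the genes chosen with their values in view. PE-high, the pool with the most globin-rich cells, held the most Slc4a1.

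The list of the CFU-E stage was late in 19 of 20 cases, where 25.9% of all genes were, and no member was early with all cells. Its members were chosen with earlier results of these data known, so the count only describes them. Car2, a carbonic anhydrase among the most abundant of these transcripts, was at 426, 460 and 342 CPM early and 1413, 1297 and 1177 CPM late. Its log2 ratios of -1.73, -1.50 and -1.78 differed by less than 0.3 between pairs. Car1 and Car2 thus changed in opposite directions in every isolation. Cldn13, a claudin of mouse erythroid cells, had 10.9, 25.1 and 7.41 CPM early and 209, 182 and 165 CPM late. Rgcc, a regulator of the cell cycle, had 36.2, 73.4 and 22.2 CPM early and 537, 465 and 355 CPM late, and Hemgn, a nuclear protein of haematopoietic cells, 18.4, 27 and 18.9 CPM early and 215, 208 and 158 CPM late. Mfsd2b, a lipid transporter, was the exception, with 52.9, 58 and 43.8 CPM early and 55.5, 49.3 and 40.3 CPM late (adjusted p = 0.36). Without marker-rich cells Mfsd2b was higher early, at 69.7, 73.8 and 54.7 CPM against 55.5, 51.2 and 40.5 CPM (log2 difference 0.41, adjusted p = 0.000816).

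Outside the lists, the largest late differences included Mrap, Trim10, Scd1, Pdia2, Arhgdig and Tmem56. Mrap, the accessory protein of the melanocortin-2 receptor, was at 5.56, 6.78 and 1.01 CPM early and 101, 82.3 and 51 CPM late. Scd1, a fatty acid desaturase, was at 1.36, 5.36 and 1.01 CPM early and 45.1, 34 and 30.9 CPM late. Trim10, a ring-finger protein of erythroid cells, was at 0.542, 1.69 and 0.337 CPM early and 29.7, 38.3 and 20 CPM late. All 3 were below 7 CPM in every early pool.

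The promoters of 3 late genes and 1 early gene from the 15 widest differences each way are shown as examples of windows that hold the letters searched for, and were picked for holding them. RefSeq promoter sequences of GRCm38.p6 were matched for 275 of the 348 consistent late and 454 of the 588 consistent early genes. Both shares are under 80%, so a comparison of motif shares between the lists is void and is not given. Each line gives the 250 bases before the annotated start, 5′ to 3′ along the gene. Capitals mark AGATAA or its reverse complement TTATCT, the letters of a GATA site, in Hbb-bs (chr7:103827929-103828178, minus strand), Trim10 (chr17:36869324-36869573, plus strand) and Epb42 (chr2:121036878-121037127, minus strand). In Prtn3 (chr10:79879417-79879666, plus strand) they mark AGGAAGT, the letters of an ETS site such as that of PU.1.
Hbb-bs: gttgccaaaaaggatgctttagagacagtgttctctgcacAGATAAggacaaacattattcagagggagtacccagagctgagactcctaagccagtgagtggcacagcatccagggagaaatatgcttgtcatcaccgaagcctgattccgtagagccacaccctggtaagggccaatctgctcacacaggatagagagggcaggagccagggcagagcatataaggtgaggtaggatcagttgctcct
Trim10: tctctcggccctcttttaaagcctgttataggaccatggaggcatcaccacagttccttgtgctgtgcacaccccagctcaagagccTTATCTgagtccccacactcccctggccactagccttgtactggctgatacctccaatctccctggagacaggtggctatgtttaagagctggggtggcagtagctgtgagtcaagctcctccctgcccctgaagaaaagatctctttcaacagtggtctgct
Epb42: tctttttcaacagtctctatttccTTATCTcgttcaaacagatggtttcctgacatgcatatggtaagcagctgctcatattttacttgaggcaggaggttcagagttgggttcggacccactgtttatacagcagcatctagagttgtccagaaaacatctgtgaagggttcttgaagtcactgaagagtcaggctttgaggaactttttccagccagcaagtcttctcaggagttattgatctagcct
Prtn3: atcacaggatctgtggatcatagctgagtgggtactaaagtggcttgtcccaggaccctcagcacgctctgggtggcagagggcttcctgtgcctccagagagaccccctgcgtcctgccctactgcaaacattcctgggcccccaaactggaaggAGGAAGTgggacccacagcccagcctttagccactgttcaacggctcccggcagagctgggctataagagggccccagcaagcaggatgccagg
The first marked letter lies 210, 163 and 226 bases before the start in Hbb-bs, Trim10 and Epb42 and 94 bases before it in Prtn3. Of 27025 promoters of the same length, 10.3% hold AGATAA and 7.8% hold AGGAAGT on either strand, so a match is a description of the letters and not a site.

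Erythroid transcription factors changed by smaller factors than the membrane genes. Of 16 tested, 11 were higher late and 3 early, with a median log2 difference of -0.58. Klf1, the erythroid Kruppel-like factor, was at 197, 214 and 124 CPM early and 490, 451 and 357 CPM late (log2 difference -1.30 ± 0.08, adjusted p = 1.06e-05). Gata1, the GATA factor of the committed lineage, had 72.5, 79.9 and 76.5 CPM early and 105, 108 and 124 CPM late, a step of -0.54 ± 0.07. Without cells rich in any marker list or in globin this step was -0.19 (adjusted p = 0.0501). With all cells Gata2 was higher early and Gata1 higher late in every isolation. Nfe2, Klf13 and Cbfa2t3 were higher early, Nfe2 at 65.6, 65.8 and 51.2 CPM against 36.6, 41.7 and 27.5 CPM. Lmo2, a bridging factor of the same complex, had 387, 353 and 296 CPM early and 348, 332 and 300 CPM late (adjusted p = 0.25).

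Cytokine receptor and signalling genes were higher early in 5 of 10 cases, not counting Kit, where 25.5% of all genes were. Epor, the erythropoietin receptor, was at 65.4, 78.1 and 43.8 CPM early and 191, 153 and 147 CPM late, and was the single late gene. Without marker-rich cells 8 genes of this list, Kit included, were tested in place of 11, so the sets of genes differ. Past 1.5-fold early in all pairs were then 2 of 8 in place of 5 of 11, and 5 of 8 were called early in place of 6 of 11. The median log2 difference was 0.31 in place of 0.68. Ptpn6, a phosphatase that dampens receptor signals, was at 83.5, 80.6 and 73.1 CPM early and 16.7, 25.8 and 17.4 CPM late. Jak2, the kinase bound to Epor, had 21.3, 27.1 and 22.9 CPM early and 29.7, 26.5 and 28.6 CPM late (adjusted p = 0.118).

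Glucocorticoid response genes were divided, 3 of 7 early and 3 late. Fkbp5, a receptor chaperone and a target of the hormone, was at 29.2, 30.1 and 16.8 CPM early and 11.6, 12.1 and 7.24 CPM late. Zfp36l2, an RNA-binding protein of BFU-E self-renewal, had 292, 222 and 230 CPM early and 125, 135 and 116 CPM late. The metallothioneins Mt1 and Mt2 went the other way. Mt2 was at 76.6, 111 and 191 CPM early and 414, 367 and 840 CPM late, and both CS pools held more Mt1 and Mt2 than the other pools of their side. Mt1 lost its call without the block (adjusted p = 0.0977).

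Cell cycle genes differed by small factors. Of 28 S phase genes 16 were higher late (57.1%, against 25.9% of all genes) and 3 early (Ung, Hells and Pola1, each with an adjusted p of at least 0.26 without the block), with a median log2 difference of -0.23. Of 28 G2/M genes 11 were higher late (39.3%) and none early, with a median of -0.18. The share of G2/M genes called was thus below the 51.3% of all genes. Rrm2, the small subunit of ribonucleotide reductase, was at 168, 165 and 90.6 CPM early and 289, 289 and 161 CPM late, and its late pool in CS lay below the early pools of the other isolations. The call of Rrm2 therefore rests on the pairing, with adjusted p = 1.32e-05 with the block and 0.113 without it. Of 13 G1 genes 4 were higher early (30.8%, against 25.5% of all genes) and 5 higher late (38.5%), with a median of -0.00. Ccnd1, a D cyclin, was at 33.8, 54.4 and 45.5 CPM early and 0.802, 6.45 and 3.28 CPM late, and Cdk6, its kinase partner, at 240, 193 and 209 CPM early and 100, 117 and 123 CPM late. Ccne1, an E cyclin, was at 88.3, 96.7 and 31 CPM early and 234, 229 and 124 CPM late. Without marker-rich cells Ccnd1 was at 8.39, 23.2 and 28.7 CPM in the early pools.

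In the metabolic lists single isozymes went in opposite directions. Of 17 glycolysis genes 7 were early and 3 late. Pkm, the common pyruvate kinase, had 437, 430 and 310 CPM early and 158, 199 and 139 CPM late. Pklr, the red cell form, had 28.5, 35.3 and 19.5 CPM early and 133, 121 and 113 CPM late. Hk2 and Pfkp, other isozymes, were early. In the list of ATF4 targets and amino acid synthesis 9 of 13 genes were late and 2 early. Asns, asparagine synthetase, was at 132, 156 and 104 CPM early and 456, 405 and 333 CPM late, while Shmt1, the cytosolic serine hydroxymethyltransferase, had 77.3, 76.2 and 62.7 CPM early and 19.6, 27.6 and 16 CPM late. Among antioxidant genes 10 of 16 were late, led by Prdx2, the red cell peroxiredoxin, at 896, 951 and 772 CPM early and 2244, 2103 and 1788 CPM late. Nucleolus (3 early and 5 late of 17) and oxidative phosphorylation (4 and 8 of 26) had medians of -0.05 and -0.01 and no gene past 1.5-fold in all pairs. Without marker-rich cells the nucleolus list had 5 early and 1 late with a median of 0.02, and oxidative phosphorylation 4 and 5. For apoptosis and mitophagy (2 early and 4 late of 13) and the MYC network (2 and 3 of 8) the medians were -0.11 and -0.12. Of these 4 lists, only the MYC network had a share of calls above the 51.3% of all genes tested.

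Without the marker-rich cells, fewer members of some lists reached the limit of 20 CPM. Over all genes 1436 were then called early and 1423 late. The share of all genes tested is not given for this setting, so these list counts have no background and only describe. The early calls were then 7 of 9 stem cell genes, 9 of 12 early erythroid genes, 8 of 10 myeloid and stem cell factors, 10 of 13 antigen presentation genes, 14 of 19 cytoskeleton genes and 6 of 8 fetal genes. The same lists had 1, 2, 1, 1, 2 and 0 late calls. The late calls were all 4 globins, 12 of 12 heme genes, 14 of 15 membrane genes, 19 of 20 CFU-E stage genes and 9 of 16 erythroid factors. Of these lists, only the CFU-E stage genes (1) and the erythroid factors (4) held early calls. In the cell cycle, 15 of 28 S phase genes were late and 1 early, and 15 of 28 G2/M genes were late and 1 early.

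**Figure D4:**
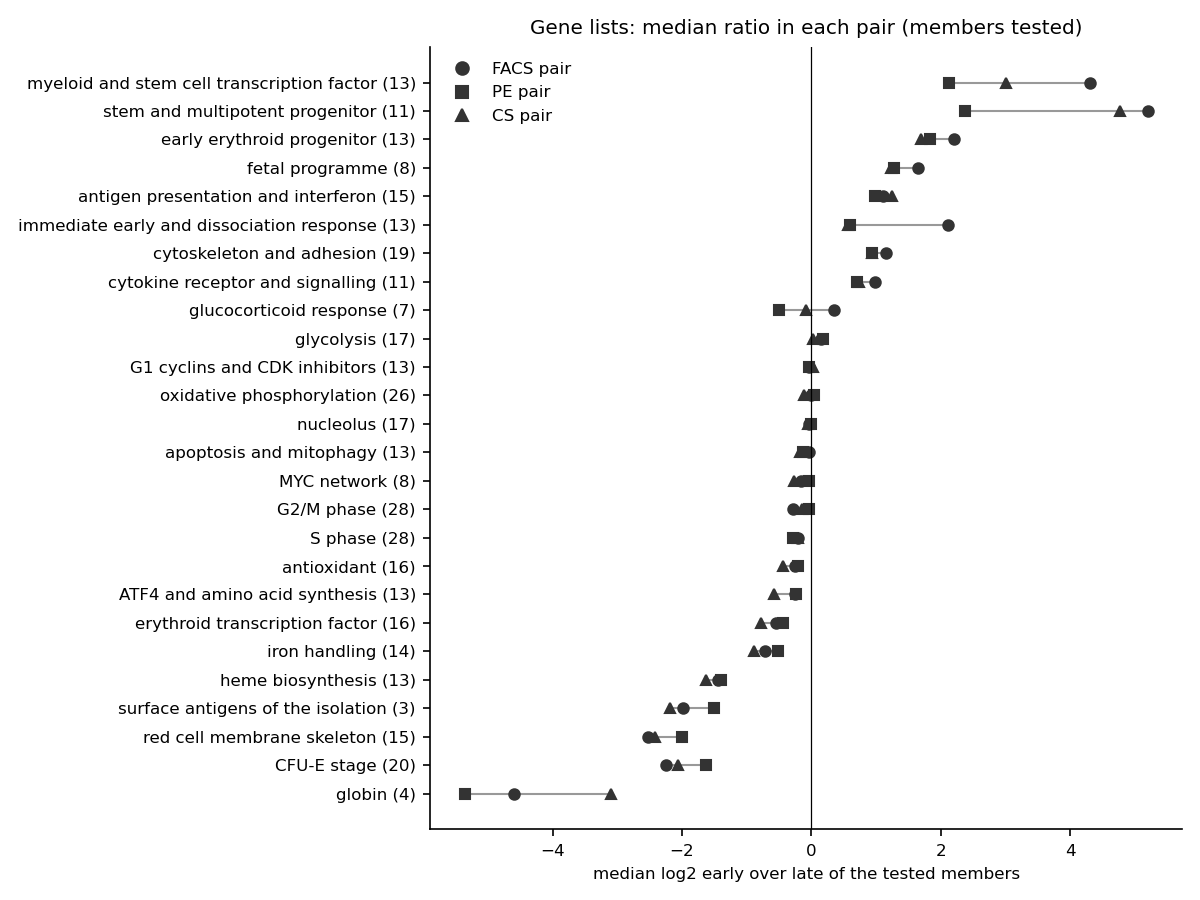
Median log2 ratio of early over late CPM of the tested members of each gene list (rows, number tested in brackets) in the FACS, PE and CS pairs (circle, square, triangle). In all 3 pairs the first 8 lists lie above 0 and the globins lie lowest, and the points are far apart for the stem cell, immediate early and globin lists.

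Not all genes had the same ratio in each isolation. Among the 588 early genes the median log2 ratio was 1.94 in FACS, 1.68 in CS and 1.29 in PE, and the PE ratio was the smallest for 456 of them. Among the 348 late genes the medians were -1.29, -1.30 and -1.02, and PE was the smallest in size for 257. Log2 ratios that differed by at least 1, with 95% counting intervals that did not overlap, were found for 63 of 2972 genes (2.12%). No pair has more than 1 pool a side, so these differences have no replicate check. In 62 of the 63 the direction was the same and past 1.5-fold in all pairs, the exception being Slc16a3, a lactate exporter, and no gene of this kind was past 1.5-fold in opposite directions. The FACS pair was the most early-sided for 45 of them and the PE pair the most late-sided for 53.

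The widest gaps are given by their pools. Ifitm1, an interferon-induced membrane protein with the widest gap, had 90.6, 77.4 and 97.7 CPM early but 0.481, 20 and 2.87 CPM late, and log2 ratios of 7.56 (95% interval 6.00 to 9.84), 1.95 (1.72 to 2.18) and 5.09 (4.45 to 5.80). Its early pools were close together, and PE-high stood above the other late pools. Fxyd5, a regulator of the sodium pump, had 84.5, 69.2 and 88.9 CPM early and 0.642, 13.1 and 2.46 CPM late. In PE-high 1 cell held 33.2% of the Ifitm1 UMIs. Without marker-rich cells, of which PE-high had 19, 29 genes differed between pairs, all among the 63. Cd34 then had log2 ratios of 3.92, 5.44 and 4.95 in FACS, PE and CS, with PE no longer the smallest, while Vim had 7.80, 4.62 and 5.12.

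Single cells of the PE pair overlapped more than those of the other pairs. The 588 early genes made up 4.82%, 4.57% and 4.2% of the UMIs of the early pools and 1.41%, 1.87% and 1.39% of those of the late pools, and the 348 late genes 2.03%, 2.26% and 1.68% against 5.28%, 5.03% and 4.42%. These genes were chosen on the same pools, so the shares describe them. In the PE pair 42 of 294 late cells (14.3%) had at least the share of early genes that 90% of PE-low cells had. The 95% exact interval of that share was 10.5% to 18.8%. In the FACS pair 1 of 167 cells did (0.0152% to 3.29%) and in the CS pair 3 of 195 (0.318% to 4.43%). These intervals cover the counting of cells within 1 pool. Cells are not replicates of an isolation, so a difference between the pairs was not tested. In the other direction 33 of 208 PE-low cells (15.9%) fell within the lower 90% of PE-high. The counts were 0 of 233 in FACS BFU-E and 0 of 122 in CS BFUE, with 95% exact upper limits of 1.57% and 2.98%. With genes picked from the FACS and PE pairs alone, 615 early and 367 late, the choice did not use the CS pools, although the CS names may themselves rest on transcripts, which was not tested. The median share of the early genes was 4.15% in CS BFUE cells and 1.55% in CS CFUE cells, and that of the late genes 1.63% and 4.42%.

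**Figure D5:**
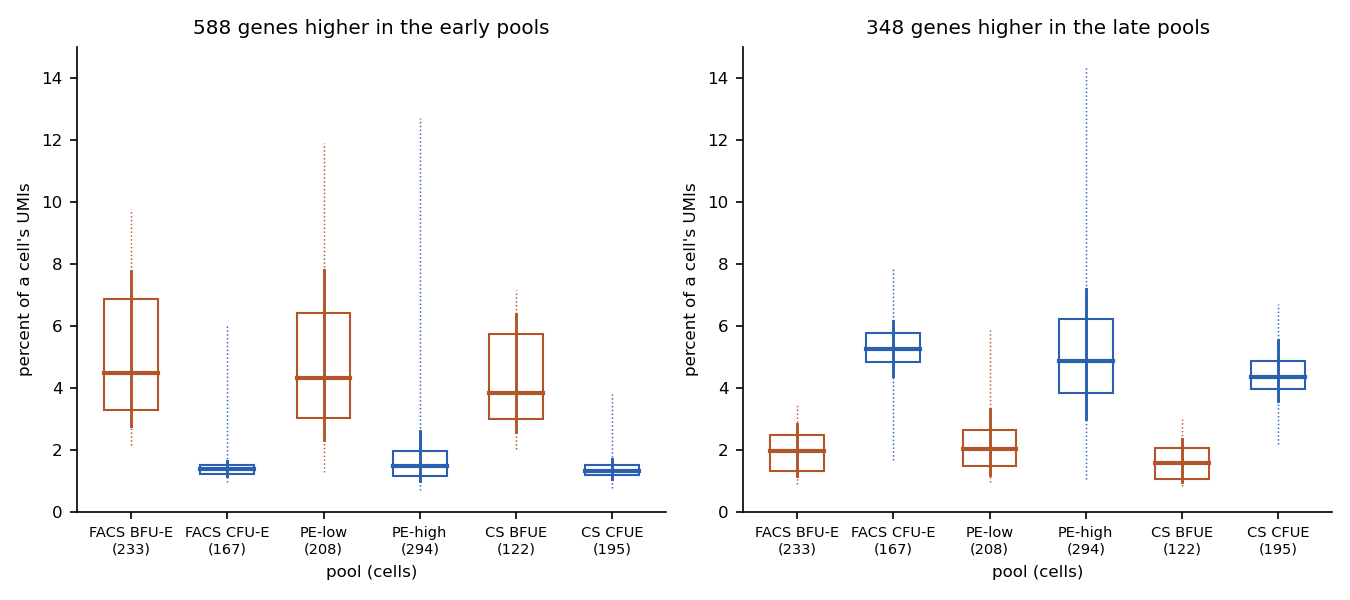
Percent of a cell's UMIs in the 588 consistent early genes (left) and the 348 consistent late genes (right), by pool with its number of cells; boxes span the 25th to 75th percentile with the median, solid lines the 10th to 90th percentile and dotted lines the lowest and highest cell. In the PE pair 42 late cells reach the range of 90% of early cells on the left, against 1 in FACS and 3 in CS.

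Among the 63 genes, the 4 globins were more late-sided in PE than in CS with all cells. The log2 ratio of Hbb-bt was -3.71 in FACS, -5.36 in PE and -1.27 in CS, and that of Hba-a1 -5.33, -5.37 and -4.04. Without cells rich in any marker list or in globin this order turned for Hba-a1 (-3.19 in PE, -3.39 in CS) and Hbb-bs (-1.57, -1.89). It held for Hbb-bt (-2.89, -0.84) and Hba-a2 (-3.59, -2.75). With all cells the CS pair, by contrast, was the most late-sided for 10 genes, among them Mrap (log2 ratio -5.66 in CS, -4.18 in FACS and -3.60 in PE), Cldn13 (-4.47, -4.27 and -2.85) and Rgcc (-4.00, -3.89 and -2.66). For these 3 genes the early pool of CS was the lowest of the early pools, and CS BFUE was also the shallowest pool.

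Immediate early and dissociation genes separated 1 pool from all others. Their summed level was 995 CPM in FACS BFU-E and 257 CPM in FACS CFU-E, against 229 and 187 CPM in PE-low and PE-high and 246 and 154 CPM in CS BFUE and CS CFUE. Jun, a subunit of AP-1, had 279, 13.6 and 33 CPM early and 31.8, 6.27 and 6.7 CPM late. The early pool was higher in each pair, but FACS CFU-E lay above PE-low, so the sides overlapped. The limma difference was 1.99 ± 0.32 (adjusted p = 0.00118), and without the block the adjusted p was 0.23. Fos, its partner, had 42, 2.4 and 1.35 CPM early and 2.25, 0.273 and 0 CPM late (adjusted p = 0.211). Hspa1a, an inducible heat shock protein, had 68.6, 4.94 and 8.09 CPM early and 15.6, 1.45 and 8.06 CPM late, with nearly equal levels in CS. Its adjusted p was 0.0479, and it lost the call under 7 of the alternatives. Of 13 tested genes 4 were higher early (30.8%, near the 25.5% of all genes) and none late.

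Few genes passed 1.5-fold in 1 isolation with small ratios in both others. Past 1.5-fold in 1 pair and within 1.2-fold in both others, among the 2972 genes, were 3 genes in FACS, 0 in PE and 10 in CS, and all were named after their values were seen. Hax1, Aspm, Mettl16, Golph3, Mrps23, Mrpl1 and Maz had the same sign in every pair and passed the limma test (adjusted p from 0.00722 to 0.0269). They therefore did not move in 1 isolation alone. The others, among them Kif23 (adjusted p = 0.161), Igf2bp1 (0.188) and Malat1 (0.0792), did not pass it. The FACS genes were Kif23, Aspm and Hax1, of which Kif23 and Aspm act in cell division and were low in FACS BFU-E. Kif23 had 33.4 CPM there and between 53.9 and 58 CPM in the other pools. In CS, Malat1, a nuclear noncoding RNA, had 1495 CPM in CS BFUE and 957 CPM in CS CFUE, and between 693 and 766 CPM in the hashed pools. Hist1h1d, a linker histone, was likewise higher in CS BFUE (117 CPM) than in CS CFUE (71.3 CPM). The other 8 were lower in CS BFUE, among them Igf2bp1, an RNA-binding protein of the fetal programme, with 38.1 CPM against 60 CPM in CS CFUE and 85.4 to 92.4 CPM in the hashed pools.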

How the data were processed

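Single-cell RNA-seq of mouse fetal liver progenitors was read from a table in which the authors deposited the natural log of 1 plus the UMIs per 10000 UMIs of each cell (17608 genes, 3357 cells). Cell Ranger 4.0.0, Scanpy and mm10 are named, per the submitters' processing notes. The sources used here do not give filters on cells and genes or the treatment of doublets, and no doublet caller was run. Pools follow the authors' deposited name of each cell. The linear values of a cell were whole multiples of its smallest value (100% of 16419767 nonzero values within 0.02), which returned the UMIs. These were summed per pool and scaled to CPM, and the total per pool gives the depth.

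The main test was limma 3.58.1 (R 4.3.3; lmFit, eBayes with trend) on log2(CPM + 2) with isolation as block, two-sided, with Benjamini-Hochberg adjustment over 6223 genes at 0.05, and all adjusted p-values are from it. Residual degrees of freedom were 2 and the prior 6.19. A log2 change on this scale understates that of low genes. Ratios within a pair have 95% exact conditional binomial intervals, and a side at 0 was set to 3 counts. Pools of 1 isolation deviated together from their side's mean (correlation 0.415 in FACS, 0.271 in PE and 0.739 in CS). The pairing comes from the isolation names. PE-low correlated more with FACS CFU-E (0.339).

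Genes named were the 15 widest called and consistent genes each way, up to 4 called members of each of 33 lists, the antigens, the 12 widest gaps between pairs and 8 abundant called genes. Other genes named, among them B2m, Gata1, Ikzf1, Jak2, Lin28b, Lmo2, Mfsd2b, Nfe2 and Fos, were chosen after their values were seen. Members and lists were chosen with earlier results of these data known. On simulated data for this comparison (6223 genes), 99 of 100 genes changed by a log2 of 1, 100 of 100 changed by 2, and 13 of 6023 unchanged genes were called. The simulated pairs were independent of each other, with the same spread set for every gene, whereas 2 of the real pairs share a library. These counts therefore do not give the rate of false calls among the real pools. Alternatives covered the pseudocount, the limit on low values, the scaling, the block, limma's voom, thinning, each pair left out and marker-rich cells left out. Some genes are not reported here.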

Additional observations from a re-analysis of the deposited data

Results flagged for a closer look

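The genes below were past 1.5-fold early in one pair and past 1.5-fold late in another, and in each case the difference between the pairs was not tested. Elane, a neutrophil protease, had a log2 ratio of at least 6.00 in the FACS pair (30.8 against 0 CPM) and -0.66 in PE (9.18 against 14.5 CPM), where 1 cell held 91.9% of the UMIs of PE-high. Btg2, an antiproliferative gene of the immediate early list, had 1.43 in FACS and -1.64 in PE. Dusp1, a phosphatase of the same list, had 1.65 in FACS and -1.07 in PE.

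Hepatocyte genes were of this kind as well. Alb had 0.76 in FACS, from 8 against 4 UMIs, and -2.46 in CS, where 1 cell held 41.8% of the UMIs of CS CFUE. Afp had 0.93 in FACS, from 9 against 4 UMIs, and -2.07 in CS, where 1 cell held 40.3%. The monocyte genes rested on few molecules in CS. Ccr2 had 4.73 in FACS and -0.70 in CS, from 2 against 8 UMIs, and Pld4 at least 4.01 in FACS and -1.02 in CS, from 1 against 5 UMIs. None of these genes reached 50 CPM in a pool of each pair, and none passed the limma test.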

How the results depend on the processing

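With no block for the pairing, 1270 genes passed the test, 768 early and 502 late, against 3195 with it. Without a limit on low values 5376 genes passed (3463 early) and 2520 were consistent (1904 early, 616 late). With 50 CPM in any pool 2014 passed (855 early) and 442 were consistent (238 and 204). A mean of 20 CPM left 613 consistent genes, 338 of them early, and a 2-fold ratio left 518, 354 early and 164 late. Without cells rich in any marker list or in globin 387 genes were consistent early. Genes that differ between pairs numbered 179 with a limit of 20 CPM, 29 without marker-rich cells and 37 without cells rich in any list. With 1 pair left out, 2200 to 3015 genes passed and 909 to 1153 were consistent, and the lowest count of calls came without the FACS pair. The other counts, under pseudocounts of 0.5 and 10, other scaling, thinning and voom, stayed within 1.5 times. Of 171 genes named, 30 lost their call without the block, and 2 to 13 did with a pair left out.

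Genes near 0 changed sign without being called: Lmo2 -0.00 with median-of-ratios scaling, Btg2 0.58 with voom and 0.42 without the PE pair (-0.04 without CS), Hist1h1d -0.02 and Igf2bp1 0.00 without the CS pair (from 0.36 and -0.33 without the PE pair), and Lin28b 0.04 after thinning, 0.00 without FACS, 0.02 without PE (-0.04 without CS), 0.01 without marker-rich cells and 0.02 without cells rich in any list. The cause was not tested. With 1 pool a side in each pair and 2968491 UMIs in CS BFUE, ratios of genes at few UMIs are imprecise.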

Other observations

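The 2138 cells named unknown, which enter no comparison, had a median of 1.21% of their UMIs in the 588 consistent early genes, with a 10th to 90th percentile of 0.808% to 3.11% and a highest value of 16.2%. The 348 consistent late genes made up 4.59% at the median, from 2.36% to 7.46%.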
